A study of Mus musculus with 8 samples.

Results

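NF-kappaB is a family of transcription factors that bind DNA in pairs, and the 10 genes described here encode its 5 subunits (Nfkb1, Nfkb2, Rel, Rela and Relb) and 5 proteins that hold the subunits back, modulate them or switch off the signal that frees them (Nfkbia, Nfkbie, Nfkbid, Bcl3 and Tnfaip3). The members were taken by gene symbol. All 10 were found among the 49492 genes of the count table, and all 10 passed the filter on low counts that left 17940 genes for testing. RNA had been sequenced from CD8+ T cells that were pulled with beads against CD8a, on day 14, out of tumours grown under the skin from B16, a mouse melanoma line. The 4 control libraries came from PLPP1fl/fl mice, in which both alleles of the phospholipid phosphatase gene Plpp1 are flanked by loxP sites. The 4 knockout libraries came from Lckcre-PLPP1fl/fl mice, which carry the same alleles and a Cre recombinase driven in the T cell lineage. All mice were described as female, and no age was given for them. Whether each library came from its own animal is not stated in the labels, so a p-value here reflects only how much these libraries vary, which can be a technical matter.

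In resting T cells NF-kappaB dimers are kept in the cytoplasm by IkappaB proteins, which cover the subunits with ankyrin repeats. Stimulation of the T cell receptor, of costimulatory receptors of the TNF receptor family or of cytokine receptors activates IkappaB kinase, the IkappaB proteins are degraded, and the dimers enter the nucleus. In the canonical route the dimers are mostly p50 (made from Nfkb1) with RelA or c-Rel. In the noncanonical route the Nfkb2 precursor p100 is cut to p52, which pairs with RelB. Several of the genes that NF-kappaB switches on encode its own subunits and inhibitors, so that the pathway feeds back on itself.

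In the knockout libraries 8 of the 10 members were higher and 0 were lower, where 32.8% of all tested genes were higher and 31.6% lower (edgeR quasi-likelihood test, adjusted p under 0.05). The members were chosen with earlier results of these data known, so the difference from the shares of all genes cannot be read as a result. All 5 subunits rose, Nfkb2 and Nfkb1 the most, with log2 fold changes of 1.12 and 0.93. Among the inhibitors Nfkbid rose by 0.86, Nfkbia by 0.44 and Nfkbie by 0.24 on the log2 scale, while Bcl3 and Tnfaip3 were not called. The median log2 fold change was 0.31 over the members and -0.01 over all tested genes. Against a 1.5-fold change, 3 of the 10 members were still called, namely Nfkb1, Nfkb2 and Nfkbid, all higher. At that threshold 3145 of all 17940 tested genes were called, 1516 of them higher. The CPM ranges of the 2 genotypes did not overlap in 7 of the 10 members, and in 58.3% of all tested genes. The direction and the call of these 8 members held with each of the 8 libraries left out in turn.

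Some facts of the whole series bear on every value below. Total counts ran from 49856353 to 61999941 in control libraries and from 44118131 to 57716522 in knockout libraries. In all, 64.3% of tested genes were called, so the libraries of the 2 genotypes differ widely. Although all mice were described as female, 4 Y-linked genes summed to 190 to 203 CPM (CPM is a gene's count relative to its TMM-scaled library total) in knockouts and stayed at or under 0.244 CPM in controls, and Xist stood at 747 ± 27 CPM in controls and 51.1 ± 4.4 CPM in knockouts (SD, n = 4). The knockout libraries thus go against their description as female. Genotype and sex-chromosome expression cannot be told apart in these libraries, and no result can be given without the doubtful libraries, since they are all of the knockouts. With the genes of chromosomes X, Y and MT left out of the fit, the count of called members was again 8. No member lies on these chromosomes, so that fit cannot test what part sex has in the member values. Plpp1 itself gave 61, 50, 35 and 62 counts in controls and 18, 32, 29 and 19 in knockouts, a log2 fold change of -0.84 (SE 0.26, edgeR, adjusted p = 0.00643), with overlapping CPM ranges. Its exons share 102 bases with the opposite-strand gene Skiv2l2, which held 156587 counts, and the labels do not name the deleted exons, so these counts do not measure how complete the deletion was.

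Promoter windows are shown here because motifs for NF-kappaB itself lay in those of members that rose and of members that did not. RefSeq windows on GRCm38.p6, each of 300 bases from 250 before the gene start to 50 after it, were at hand for 8 of the 10 members, 13 windows in all, with no entry for Nfkb1 and Relb. They were searched on both strands for the degenerate NF-kappaB consensus of 10 bases and for GGGNNTTTCC, a second pattern whose matches can also be matches of the consensus. The consensus was found in 9 of the 13 windows and in 7 of the 8 members, where 4.51% of 32851 windows of all genes and 5.14% of 27025 genes held it. GGGNNTTTCC was found in 4 members, namely Nfkb2, Rel, Nfkbia and Tnfaip3, and in 1.89% of all genes. Capitals in the windows below, printed 5′ to 3′ on the gene's strand, mark matches to the consensus on either strand. Nfkb2, Nfkbid and Nfkbia were higher in knockouts, and Bcl3 and Tnfaip3 were not called.
Nfkb2, chr19:46304487-46304786, plus strand: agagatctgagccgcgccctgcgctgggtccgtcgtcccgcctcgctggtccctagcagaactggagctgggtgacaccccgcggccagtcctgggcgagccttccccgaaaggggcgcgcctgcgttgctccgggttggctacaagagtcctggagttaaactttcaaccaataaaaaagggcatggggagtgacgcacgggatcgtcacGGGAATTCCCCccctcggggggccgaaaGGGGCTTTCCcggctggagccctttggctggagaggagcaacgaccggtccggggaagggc
Nfkbid, chr7:30422156-30422455, plus strand: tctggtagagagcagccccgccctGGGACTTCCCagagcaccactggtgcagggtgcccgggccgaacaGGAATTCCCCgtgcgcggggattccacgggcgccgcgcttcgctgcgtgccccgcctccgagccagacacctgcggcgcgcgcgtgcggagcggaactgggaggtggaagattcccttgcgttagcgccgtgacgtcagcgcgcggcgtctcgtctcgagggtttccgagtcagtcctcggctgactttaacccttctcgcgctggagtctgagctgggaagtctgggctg
Nfkbia, chr12:55492598-55492897, minus strand: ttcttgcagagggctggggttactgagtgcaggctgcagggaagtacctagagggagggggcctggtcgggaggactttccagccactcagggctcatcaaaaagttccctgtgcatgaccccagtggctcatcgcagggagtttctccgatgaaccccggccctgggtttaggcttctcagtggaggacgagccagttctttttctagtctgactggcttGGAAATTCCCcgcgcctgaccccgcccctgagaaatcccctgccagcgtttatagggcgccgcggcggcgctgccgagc
Bcl3, chr7:19822706-19823005, minus strand: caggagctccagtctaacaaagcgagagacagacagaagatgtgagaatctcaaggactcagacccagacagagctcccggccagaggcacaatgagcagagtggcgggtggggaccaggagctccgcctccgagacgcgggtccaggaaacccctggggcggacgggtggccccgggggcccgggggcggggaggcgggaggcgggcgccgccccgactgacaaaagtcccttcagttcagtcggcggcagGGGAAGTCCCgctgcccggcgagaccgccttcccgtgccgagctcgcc
Tnfaip3, chr10:19015361-19015660, minus strand: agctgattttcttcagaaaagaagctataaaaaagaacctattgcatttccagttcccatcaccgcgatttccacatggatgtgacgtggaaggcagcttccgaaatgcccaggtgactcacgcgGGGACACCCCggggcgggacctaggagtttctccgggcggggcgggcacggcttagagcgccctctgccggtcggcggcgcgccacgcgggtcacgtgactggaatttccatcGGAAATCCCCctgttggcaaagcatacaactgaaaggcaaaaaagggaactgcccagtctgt
In the Nfkb2 window the first run of capitals holds 3 overlapping matches, of which GGGAATTCCC reads the same on both strands, and the second is GGGGCTTTCC, which begins 11 bases before the start. The Nfkbia window holds a single match, GGGAATTTCC on the opposite strand, 29 bases before the start. Tnfaip3 has GGGGATTTCC on the opposite strand 12 bases before its start, and Bcl3 has GGGACTTCCC on the opposite strand among the first transcribed bases. The second of the Nfkbid windows begins its matches 226 and 181 bases before that start, and the other 2 Nfkbid windows hold none. Rel has 3 overlapping matches about GGGAAATCCC, 92 bases before its start, and Nfkbie has GGGGGATTCC 106 bases before its start. The Rela window held no match, and Rela rose. A match is a stretch of letters and does not show that a factor binds there.

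Nfkb1 encodes the precursor p105, which is cut to the DNA-binding subunit p50 and which otherwise acts as an inhibitor. It lies on the minus strand of chromosome 3, from base 135584655 to base 135691547 of GRCm38. Control libraries 1 to 4 held 136, 137, 134 and 136 CPM and knockout libraries 1 to 4 held 255, 264, 273 and 243 CPM. Each knockout library lay far above each control library, and the coefficient of variation was 1.07% over the controls and 5.02% over the knockouts. The mean went from 136 ± 1.5 to 259 ± 13 CPM (SD, n = 4), a log2 fold change of 0.93 (SE 0.045, edgeR quasi-likelihood, adjusted p = 2.01e-14). This gene was the most abundant member in counts, above 94.3% of all tested genes.

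Nfkb2 encodes p100, the precursor of p52 and an inhibitor of RelB. It lies on the plus strand of chromosome 19, from base 46304737 to base 46312090. The controls held 46.3, 46.4, 45.4 and 45.0 CPM and the knockouts 97.6, 105, 96.4 and 98.2 CPM. The groups were far apart, and this was the largest fold change of the 10 members, from 45.8 ± 0.72 to 99.2 ± 3.6 CPM (SD, n = 4), at 1.12 on the log2 scale (SE 0.044, edgeR, adjusted p = 3.95e-16). In absolute size it exceeded the log2 change of 89.2% of all tested genes. Of its exonic bases 4 also belong to Psd on the opposite strand, a gene at 1665 counts over the 8 libraries against 30155 for Nfkb2.

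**Figure D1:**
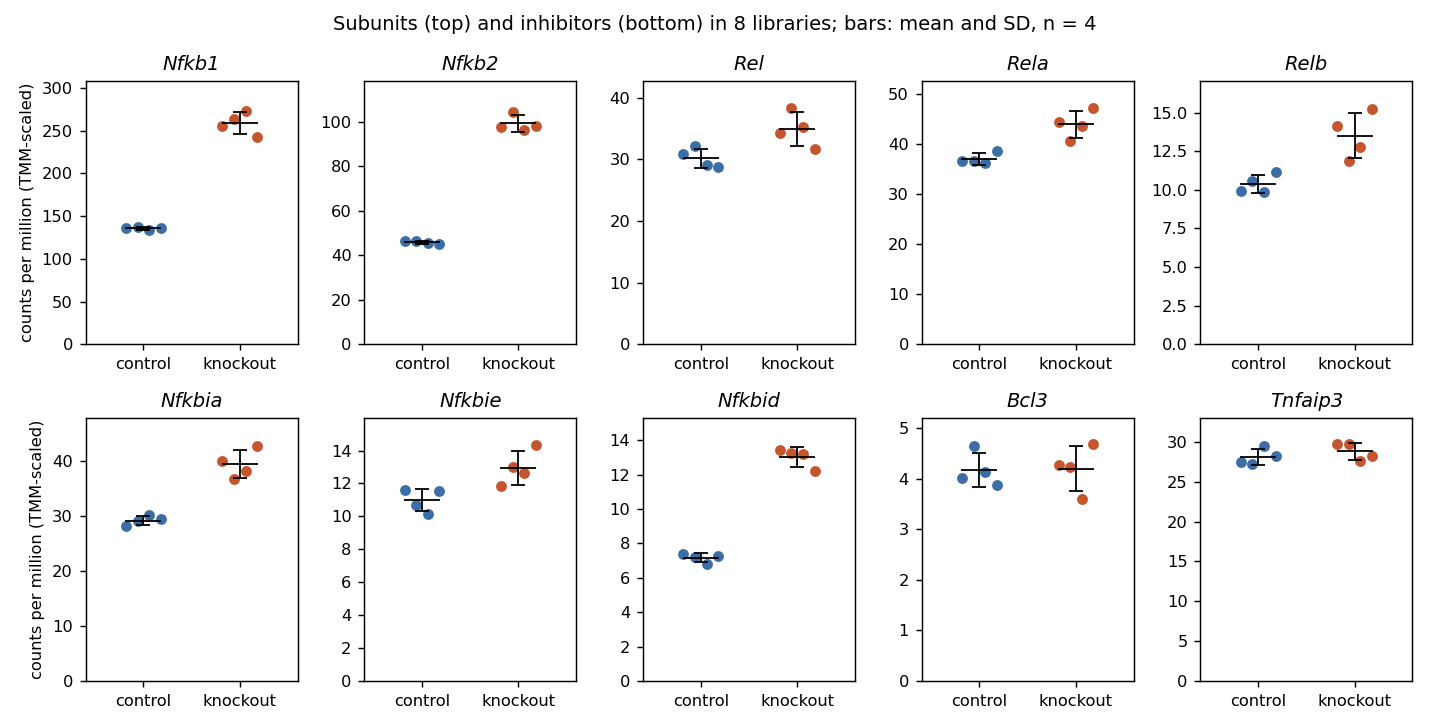
Level in CPM (linear axis from 0, TMM-scaled) of the 5 subunits in the top row and the 5 inhibitors in the bottom row. Each point is a library, in replicate order from left to right, and bars give the mean and SD of 4 libraries. The 4 knockout libraries of Nfkb1, Nfkb2 and Nfkbid lie far above the 4 controls, while those of Bcl3 and Tnfaip3 overlap them.

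Rela, Rel and Relb encode the subunits that carry a transactivation domain, and each rose, with a smaller log2 fold change than Nfkb1 or Nfkb2. Rela, whose product p65 is the main activating partner of p50, lies on the plus strand of chromosome 19 (5637483 to 5648130). Its controls held 36.5, 36.6, 36.2 and 38.6 CPM and its knockouts 44.3, 40.6, 43.6 and 47.2 CPM. The groups did not overlap, with control replicate 4 and knockout replicate 2 closest to each other, and the log2 fold change was 0.25 (SE 0.050, edgeR, adjusted p = 1.49e-04).

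Rel encodes c-Rel, the subunit that lymphocytes induce after antigen receptor stimulation, and lies on the minus strand of chromosome 11 (23736847 to 23770970). The controls held 30.8, 32.1, 29.1 and 28.8 CPM and the knockouts 34.2, 38.3, 35.3 and 31.7 CPM. The groups overlapped, since knockout replicate 4 lay below control replicate 2. The log2 fold change of 0.21 (SE 0.057, edgeR, adjusted p = 0.00312) was the smallest among the subunits.

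Relb encodes the partner of p52 in the noncanonical route and lies on the minus strand of chromosome 7 (19606217 to 19629438). The controls held 9.95, 10.6, 9.83 and 11.1 CPM and the knockouts 14.1, 11.9, 12.8 and 15.2 CPM. All knockouts lay above all controls, with knockout replicate 2 closest to them. The log2 fold change was 0.38 (SE 0.077, edgeR, adjusted p = 1.58e-04), and with a coefficient of variation of 10.9% its knockout libraries were the most variable of any member.

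**Figure D2:**
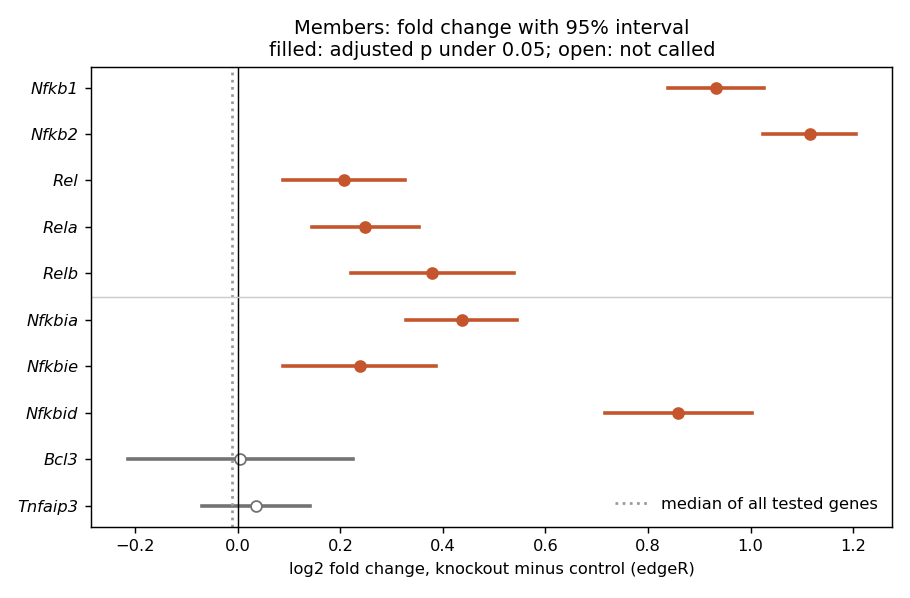
Log2 fold change of each member (horizontal axis, knockout minus control, edgeR) with its 95% interval, subunits above the line and inhibitors below it. Filled points passed adjusted p under 0.05. The intervals of Nfkb1 (0.84 to 1.03), Nfkb2 (1.03 to 1.21) and Nfkbid (0.72 to 1.003) lie to the right of those of all other members.

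Beside the rises of single genes stand the ratios between them. Ratios of counts within a library do not depend on how libraries are scaled, and are given as descriptions without a test. The Nfkb1 to Rela count ratio was 3.72, 3.75, 3.69 and 3.52 in controls and 5.76, 6.50, 6.27 and 5.14 in knockouts. That of Nfkb2 to Relb was 4.65, 4.38, 4.61 and 4.04 in controls and 6.90, 8.79, 7.55 and 6.45 in knockouts. In both ratios every knockout library lay above every control library, and the means differed 1.61-fold and 1.68-fold. The Nfkb2 to Nfkb1 ratio moved less, from 0.337 ± 0.0045 to 0.384 ± 0.023 (SD, n = 4), with no overlap.

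Levels of different genes can be set side by side only per length, here as CPM per kilobase of the exonic length in the deposited table. On that scale Nfkb2 made up 30.6% ± 0.54 of the summed level of the 5 subunits in controls and 39.7% ± 1.2 in knockouts (SD, n = 4). The share of Nfkb1 was 24.7% ± 0.12 and 28.3% ± 1.3. The share of Rela was 29.9% ± 0.75 and 21.3% ± 1.5, that of Rel 8.89% ± 0.41 and 6.15% ± 0.44, and that of Relb 5.87% ± 0.28 and 4.58% ± 0.53. For each of the 5 subunits the shares of the 4 knockout libraries did not overlap those of the controls. The shares depend on the length used: the deposited table gives Nfkb1 12061 bases, while its longest protein-coding transcript in GENCODE M21 has 4117. With GENCODE lengths the share of Nfkb1 was 49.0% ± 0.25 in controls and 54.4% ± 1.7 in knockouts and that of Nfkb2 17.7% ± 0.32 and 22.3% ± 0.85, and the direction of all 5 shares was as before.

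**Figure D3:**
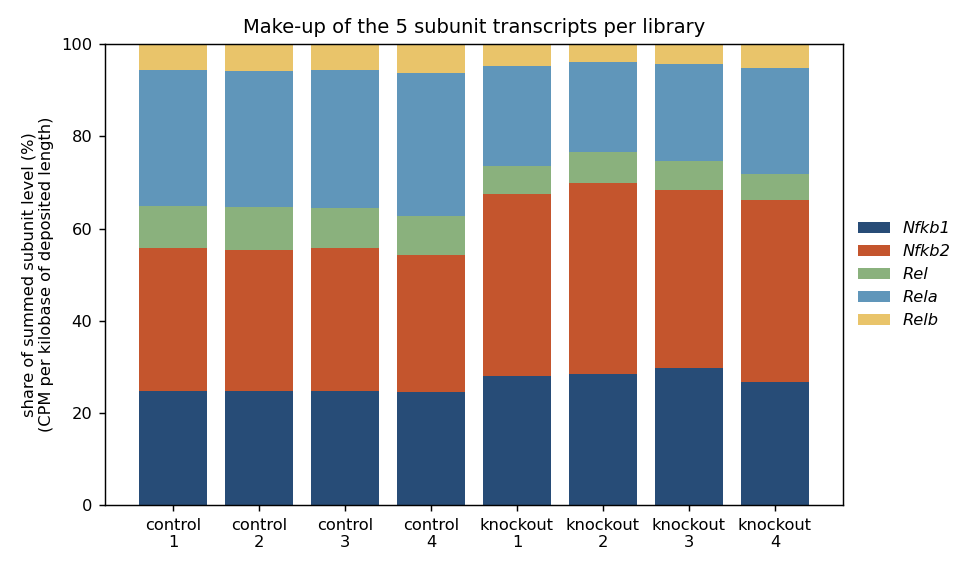
Share of each subunit in the summed level of the 5 subunits (percent, CPM per kilobase of deposited length), 1 bar per library. The shares of Nfkb1 and Nfkb2 together are larger in each of the 4 knockout bars than in any control bar, and those of Rela, Rel and Relb smaller.

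In the order of levels per deposited kilobase, Nfkbia stood first in controls at 18.5 ± 0.52, ahead of Nfkb2 at 13.9 ± 0.22, Rela at 13.6 ± 0.41 and Nfkb1 at 11.2 ± 0.12 CPM per kilobase (SD, n = 4). The library ranges of Nfkb2 and Rela overlapped, so these neighbours were not apart. Lower down, Nfkbie, Rel and Tnfaip3 lay at 4.54, 4.05 and 3.89 CPM per kilobase, with Nfkbid at 3.06, Relb at 2.67 and Bcl3 last at 1.69. Of these, the ranges of Nfkbie and Rel and those of Rel and Tnfaip3 overlapped. In knockouts Nfkb2 stood first at 30.2 ± 1.1, then Nfkbia at 25.1 ± 1.6, Nfkb1 at 21.5 ± 1.1 and Rela at 16.2 ± 0.99 CPM per kilobase, each apart from the next. Below them the range of Nfkbie, at 5.35, overlapped those of Nfkbid, at 5.56, and of Rel, at 4.67, and Rel was apart from Tnfaip3, the next in order. Tnfaip3 at 3.99 and Relb at 3.48 overlapped, and Bcl3 was again last, at 1.70 CPM per kilobase. With GENCODE lengths Nfkb1 stood first in both genotypes, at 33.0 ± 0.35 and 62.9 ± 3.2 CPM per kilobase.

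The inhibitors did not move as a group. Nfkbia encodes IkappaB-alpha, the inhibitor that is degraded first on stimulation and remade as a target of NF-kappaB, and lies on the minus strand of chromosome 12 (55489411 to 55492647). The controls held 28.2, 29.1, 30.2 and 29.4 CPM and the knockouts 40.1, 36.9, 38.3 and 42.9 CPM. All knockouts lay above all controls, and the mean went from 29.2 ± 0.82 to 39.5 ± 2.6 CPM (SD, n = 4), a log2 fold change of 0.44 (SE 0.052, edgeR, adjusted p = 1.24e-07).

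Nfkbie, which encodes IkappaB-epsilon, a second cytoplasmic inhibitor, lies on the plus strand of chromosome 17 (45555716 to 45563169). The controls held 11.6, 10.7, 10.2 and 11.6 CPM and the knockouts 11.9, 13.0, 12.6 and 14.3 CPM. The groups nearly touched, and the log2 fold change was 0.24 (SE 0.072, edgeR, adjusted p = 0.00615).

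Nfkbid and Bcl3 encode atypical IkappaB proteins, which act in the nucleus on dimers of p50 or p52. Nfkbid, whose product IkappaBNS is known to be induced by T cell receptor signals, lies on the plus strand of chromosome 7 (30421732 to 30428746). The controls held 7.38, 7.22, 6.83 and 7.27 CPM and the knockouts 13.5, 13.3, 13.2 and 12.2 CPM. The groups were far apart, and the log2 fold change was 0.86 (SE 0.069, edgeR, adjusted p = 1.79e-10). Its count ratio to Nfkb1 was 0.0529 ± 0.0014 in controls and 0.0504 ± 0.0018 in knockouts (SD, n = 4), with overlapping groups.

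Bcl3 lies on the minus strand of chromosome 7 (19808462 to 19822770). The controls held 4.03, 4.66, 4.14 and 3.88 CPM and the knockouts 4.28, 4.23, 3.60 and 4.69 CPM, so the groups overlapped throughout. The log2 fold change was 0.0045, with a 95% interval of -0.22 to 0.22 (edgeR, adjusted p = 0.974), and the sign of so small a value turned under several other settings. Bcl3 shares 161 exonic bases, 6.51% of its length, with the opposite-strand gene Gm16175, which held 91 counts in all against 1794. Its count ratio to Nfkb2, which encodes the precursor of one of its partners, was 0.0912 ± 0.0065 in controls and 0.0424 ± 0.0045 in knockouts (SD, n = 4).

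Tnfaip3 encodes A20, a ubiquitin-editing enzyme that shuts off signalling upstream of IkappaB kinase, and lies on the minus strand of chromosome 10 (19000910 to 19015657). The controls held 27.5, 27.3, 29.5 and 28.2 CPM and the knockouts 29.7, 29.7, 27.7 and 28.2 CPM. The groups overlapped, and the log2 fold change was 0.04, with a 95% interval of -0.07 to 0.14 (edgeR, adjusted p = 0.555). The interval leaves out a change as large as that of Nfkbia. The Tnfaip3 to Nfkbia count ratio was 0.974, 0.937, 0.979 and 0.958 in controls and 0.741, 0.806, 0.723 and 0.657 in knockouts, with no overlap.

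Set against the subunits, the log2 fold change of Nfkbia lay between those of Rela and Nfkb1. The Nfkbia to Rela count ratio was 0.772, 0.795, 0.833 and 0.762 in controls and 0.905, 0.908, 0.879 and 0.908 in knockouts. The Nfkbia to Nfkb1 ratio was 0.215 ± 0.0077 in controls and 0.153 ± 0.018 in knockouts (SD, n = 4). Neither ratio overlapped between genotypes, and they lay on opposite sides of their control values. The Nfkbia to Rel ratio, 0.970 ± 0.069 and 1.14 ± 0.17, did overlap.

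Other genes of the pathway, 95 in lists that leave out the members, were read from the same fit. Of the 91 tested, 44 were higher and 27 lower, 78% in all, where 64.3% of all tested genes were called. These lists were chosen with earlier results of these data known, so the difference between the 2 shares cannot be read as a result. The same limit holds for the counts of each list below, where 32.8% of all tested genes were higher and 31.6% lower. The IkappaB relatives outside the members were split: Nfkbib, which encodes IkappaB-beta, rose from 18.1 ± 0.56 to 34.6 ± 1.5 CPM, Nfkbil1 fell by 0.30 on the log2 scale, and Nfkbiz, another atypical IkappaB gene, stood at 19.8 ± 0.37 and 18.3 ± 0.90 CPM (SD, n = 4, edgeR adjusted p = 0.0753). Ankrd42, an ankyrin-repeat gene that stands in this list but is not an IkappaB gene, rose too, at no more than 0.663 CPM in either group mean.

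Of 15 receptors upstream, 6 rose and 6 fell, with a median log2 fold change of 0.11. The costimulatory receptors of the TNF receptor family Tnfrsf4 (OX40), Tnfrsf9 (4-1BB) and Tnfrsf18 (GITR) rose by 2.33, 1.58 and 1.05 on the log2 scale. Cd27, a receptor of the same family, went from 273 ± 10 to 130 ± 11 CPM (SD, n = 4), a fall of 1.07. The receptor genes Tlr2 and Il1r1 were low, at up to 0.574 and 0.330 CPM in the group means, and were not called.

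Of 6 genes in the arm that links the antigen receptor to IkappaB kinase, 4 were lower and 1 higher (median -0.20). Over all tested genes 31.6% were lower and 32.8% higher. Carmil2, a scaffold of CD28 costimulation, fell by 1.18 and Prkcq, a kinase activated downstream of the antigen receptor, by 0.26 on the log2 scale. Malt1, a paracaspase that binds Bcl10, rose by 0.40, and Bcl10 stood at 13.1 ± 0.71 and 13.2 ± 1.1 CPM (SD, n = 4, edgeR adjusted p = 0.856).

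Ubiquitin adaptors and ligases gave 6 rises and 6 falls among 15 genes (median 0.0074). Birc3 (cIAP2), a ubiquitin ligase and known NF-kappaB target, rose by 0.63 and Traf2 by 0.38, while Sharpin, a subunit of the linear ubiquitin ligase, fell by 0.59 and Traf5 by 0.46. Ripk1 stood at 91.0 ± 2.1 and 91.5 ± 1.8 CPM and Rbck1 at 89.9 ± 2.3 and 95.1 ± 1.1 CPM (SD, n = 4), neither of them called.

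Among 11 genes of kinases and of their regulatory or adaptor subunits 3 rose and 4 fell (median 0.03), and the catalytic subunits of IkappaB kinase moved apart. Ikbkb, the catalytic subunit of the canonical route, went from 136 ± 2.5 to 96.8 ± 4.7 CPM, while Chuk, the IKK-alpha subunit that the noncanonical route needs, went from 43.8 ± 2.2 to 58.9 ± 2.0 CPM (SD, n = 4). Both passed the test, with log2 fold changes of -0.49 and 0.42 (edgeR, adjusted p = 1.21e-09 and 4.62e-08). The regulatory subunit gene Ikbkg stood at 103 ± 4.2 and 98.0 ± 9.9 CPM (edgeR, adjusted p = 0.318). Ikbke, an IKK-related kinase, fell by 1.47 and Map3k8, the kinase held by p105, rose by 0.48 on the log2 scale. Tab2, an adaptor of TAK1, stood at 74.0 ± 2.4 and 75.6 ± 2.7 CPM and was not called.

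Of 13 other brakes on the pathway 7 rose and 2 fell (median 0.16), 69.2% in all, near the 64.3% of all tested genes. Otulin, which removes linear ubiquitin chains, and the A20-binding protein genes Tnip2 and Tnip3 rose by 0.64, 0.62 and 0.53, and Cyld, a deubiquitinase, fell by 0.34 on the log2 scale. Tnip1 stood at 152 ± 3.1 and 160 ± 3.3 CPM and Tax1bp1 at 508 ± 30 and 492 ± 12 CPM (SD, n = 4), neither of them called.

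Where 32.8% of all tested genes were higher and 31.6% lower, 19 of 27 tested genes in a list of NF-kappaB targets rose and 4 fell. The median log2 fold change of this list was 0.70. It leaves out the members, of which Bcl3 and Tnfaip3 were not called, and targets placed in other lists, such as Birc3. It was chosen with earlier results of these data known, so these counts cannot be read as a result about NF-kappaB targets in general. Other factors also drive the listed genes, and Eomes stands in the natural killer list as well. Il2ra went from 233 ± 4.2 to 1015 ± 16 CPM, Bcl2l1, which encodes the survival protein Bcl-xL, from 26.7 ± 1.6 to 102 ± 3.0 CPM, and the transcription factor gene Irf4 from 75.2 ± 1.8 to 208 ± 14 CPM (SD, n = 4). The chemokine gene Ccl3 rose by 2.93 on the log2 scale. The 4 targets that fell were Ltb, Irf1, Ccr7 and Xiap, with log2 fold changes of -1.15, -1.11, -0.96 and -0.45. Cflar, the inhibitor of caspase-8, stood at 95.03 ± 0.66 and 90.8 ± 2.9 CPM and Relt at 11.3 ± 0.57 and 12.4 ± 0.46 CPM (SD, n = 4), neither of them called. Against a 1.5-fold change 26 of the 91 tested pathway genes were called, 19 higher and 7 lower. At that threshold 3145 of all 17940 tested genes were called, 1516 higher and 1629 lower.

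**Figure D4:**
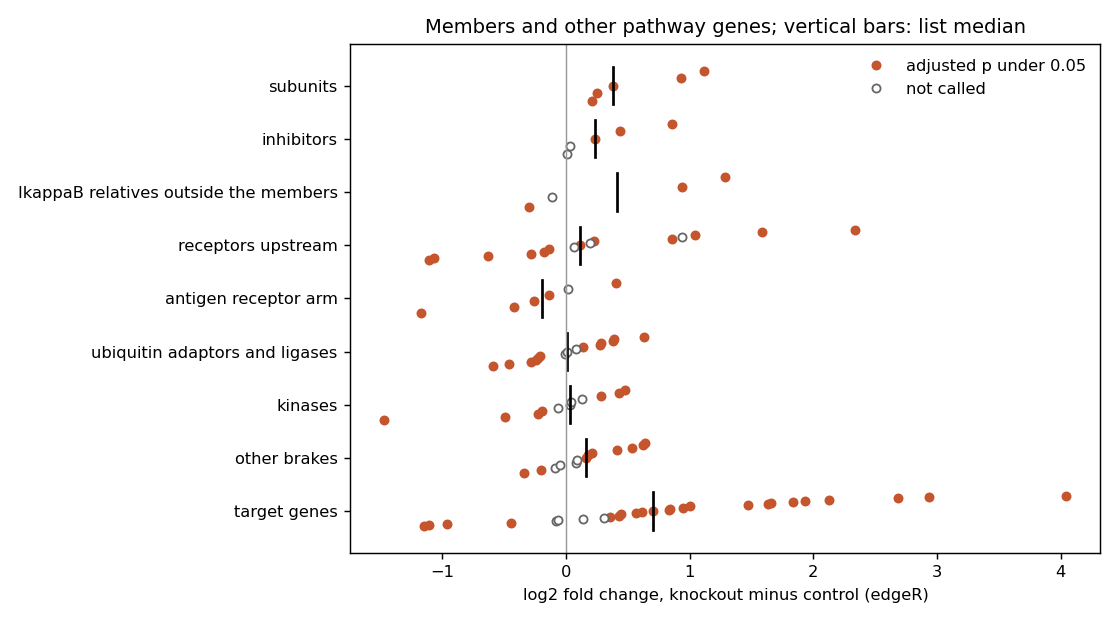
Log2 fold change (horizontal axis, knockout minus control, edgeR) of the tested members and other pathway genes, 1 row per list, with the list median as a vertical bar. Filled points passed adjusted p under 0.05. The target genes reach from -1.15 to 4.04 with a median of 0.70, and the 5 subunits all lie right of 0.

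Markers of other cells and of sample handling moved with these results, and their part in them was not tested. In bulk RNA, fewer cells of a type and less RNA per cell cannot be told apart. CD8 T cell genes were lower in knockouts in 7 of 7 cases, their summed level running from 1793 to 1850 CPM in controls and from 1196 to 1324 CPM in knockouts. The dissociation-stress list, which tissue handling can raise, had 13 of 19 genes higher and 4 lower, with sums of 6209 to 6548 and 9579 to 10158 CPM. Over all tested genes 32.8% were higher and 31.6% lower. Most of the sum was the chaperone genes Hspa8, at 3536 and 4729 CPM, and Hsp90aa1, at 1981 and 3694 CPM. Btg2, Zfp36, Dusp1 and Jund fell, by 0.97, 0.82, 0.62 and 0.12 on the log2 scale, and Fos and Dnajb1 were not called. Of the 10 dendritic cell markers 6 could be tested, 3 higher and 1 lower, and their sums were 31.9 to 38.2 CPM in controls and 254 to 275 in knockouts. Batf3, also a T cell factor, held 30.4 and 256 CPM of them. Zbtb46 rose from 0.618 to 2.37 CPM and Fscn1 from 0.351 to 0.726 CPM, Itgax fell from 1.26 to 0.594 CPM, Flt3 averaged at most 0.201 CPM and Cd209a was at 0 in all libraries. B cell markers summed to 187 to 201 CPM in controls and 89.2 to 98.5 in knockouts, nearly all of it Ighm, with Ms4a1 at no more than 0.233 CPM in a group mean. Of the 12 macrophage markers 4 could be tested, 1 higher and 1 lower, and their sums were 6.60 to 7.14 and 5.43 to 6.27 CPM. Natural killer and gamma-delta T cell markers summed to 81.5 to 85.7 CPM in controls and 101 to 106 in knockouts, with 3 of 6 higher. Nearly all of it was Klrk1, at 56.5 and 54.9 CPM and not called, and Eomes, at 24.4 and 43.4 CPM. Klrb1c rose from 0.488 to 1.64 CPM and Trdc from 0.997 to 2.88 CPM. Ncr1 and Tyrobp, at no more than 0.344 CPM in a group mean, were not called. Melanoma markers summed to 17.9 to 19.4 and 5.30 to 6.56 CPM, with Mlana, Tyr and Tyrp1 at 0 in all libraries. Most of both sums was Pmel, at 16.9 CPM in controls and 4.32 CPM in knockouts. Mitf, at no more than 1.72 CPM in a group mean, was not called. Dct and Sox10 averaged at most 0.059 and 0.0164 CPM in a group. The fall of the sum is thus that of a single gene. Neutrophil markers summed to 0.540 to 1.0065 CPM in controls and 0.262 to 0.633 CPM in knockouts. The fibroblast and endothelial list, at 99.9 to 112 and 25.3 to 30.6 CPM, was nearly all Pecam1. The endothelial markers Cdh5 and Kdr averaged at most 0.0109 and 0.112 CPM in a group. Among CD4 and regulatory T cell markers 1 of 3 fell, with sums of 14.9 to 16.4 and 13.5 to 14.9 CPM.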

How the data were processed

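Stranded polyA libraries were built from TRIzol-extracted RNA, per the labels' protocols. The submitters' processing notes name Trimmomatic 0.36, featureCounts, Subread 1.5.1 and the build GRCm38. Aligner, annotation release and strand setting are not named there. The values are the authors' deposited raw counts per gene, without normalization. Of low counts (1 to 10), 85.7% to 87.7% per library were even, a sign that both mates of a read pair were counted. Exonic gene lengths are the authors' deposited values.

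Counts of 4 control and 4 knockout libraries were compared in edgeR 4.0.16 (R 4.3.3, limma 3.58.1), two-sided, with filterByExpr, TMM scaling, robust quasi-likelihood F tests and Benjamini-Hochberg adjustment over all 17940 tested genes at 0.05. Each SE was taken as |log2 fold change| divided by the root of its F value. The biological coefficient of variation was 0.0627. DESeq2 1.42.0, other scalings, no filter, halved counts and omitted libraries were alternatives. The code was tested on simulated data. Library pairs differed by 1.8 to 5.4 times sampling noise within a genotype, so none was merged. Precision figures cover counting and library spread only. Members and lists were chosen with earlier results of these data known. Named pathway genes are up to 4 called genes with the smallest adjusted p and 2 uncalled genes with the highest CPM of each list; other genes were named after their values were seen. Some genes that this rule or the marker lists name are not reported here. Motif positions count from the gene start of each RefSeq window.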

Additional observations from a re-analysis of the deposited data

Results flagged for a closer look

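Among the 20 groups of 4 libraries examined, 10 members in each genotype, a single value stood apart from its group. Rela in control replicate 4 was at 38.6 CPM, while the other control libraries lay between 36.2 and 36.6 CPM, so that the gap made up 0.838 of the group's range, above Dixon's critical value for a group of 4. Chance flags about 1 in 20 groups. The value lay toward the knockout libraries and below all of them.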

How the results depend on the processing

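Over the 16 settings that test for any change, all 160 member calls were as in the main analysis, with 8 members higher and none lower without any of the 8 libraries. Against a 1.5-fold change the count of called genes fell from 11542 to 3145 (1516 higher and 1629 lower), that of members to 3, all of them higher, and that of pathway genes to 26 (19 higher and 7 lower); fewer genes pass because the test asks for more. Without single libraries the pathway count ran from 67 to 72 and that of all genes from 11010 to 11556. Estimates that changed sign were all of genes that were not called in any setting. Bcl3 stood at -0.0172 with total counts only, -0.0258 with upper-quartile factors, -0.0109 without the filter, -0.0112 with halved counts and -9e-04 without genes of chromosomes X, Y and MT. Without single libraries it ran from -0.0592 to 0.077. Bcl10 stood at -0.0047 and -0.0148 with total counts and upper-quartile factors, and from -0.0254 to 0.0534 without single libraries. Ripk1 stood at -0.0152, -0.0238, -0.0077 and -0.0052 with total counts, upper-quartile factors, no filter and halved counts, and from -0.0164 to 0.0183 without single libraries. Without single libraries Tab2 ran from -5e-04 to 0.0486 and Il1r1 from -0.0544 to 0.1648. Among the 39 pathway genes picked by the naming rule above, 3 changed their call under a setting that tests any change. Nfkbiz passed in 4 such settings (edgeR, adjusted p = 0.0288 to 0.0471). Cflar passed with upper-quartile factors (edgeR, adjusted p = 0.0423) and Relt without control replicate 2 (edgeR, adjusted p = 0.0497). The cause was not tested. Same-numbered libraries of the genotypes were not treated as pairs in the main fit, since the labels do not say that they are. The correlation of their deviations was 0.114, 0.245, -0.094 and 0.197, and 5 of 8 libraries correlated best with their own number. These values cannot decide whether libraries of equal number share a batch. With the replicate number as a block 11516 genes, 8 members and 70 pathway genes were called. Subunit shares depend on the gene length used, as given above: without division by length, knockout shares were 57.5% for Nfkb1, 22.03% for Nfkb2, 7.74% for Rel, 9.77% for Rela and 3.01% for Relb, and with GENCODE lengths 54.4%, 22.3%, 4.04%, 14.0% and 5.30%. The labels do not tie libraries to animals, and all knockout libraries carried Y-linked RNA, which limits every comparison.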

Other observations

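Within a genotype the members did not rank the libraries alike. All 10 members had a larger coefficient of variation over the knockout libraries (3.67% to 10.9%) than over the controls (1.07% to 8.12%). For Tnfaip3 the values were nearly equal, 3.66% in controls and 3.7% in knockouts. The share of all tested genes with a larger value in knockouts was not computed, so this is not shown to be particular to the members. Knockout replicate 4 was the highest knockout library for 5 members (Rela, Relb, Nfkbia, Nfkbie and Bcl3) and the lowest for 3 (Nfkb1, Rel and Nfkbid). Knockout replicate 2 was the highest for Nfkb2, Rel and Tnfaip3 and the lowest for Rela, Relb and Nfkbia. Among the controls, replicate 4 was likewise the highest for Rela and Relb and the lowest for Rel, and also for Nfkb2 and Bcl3. Rela and Relb thus had their highest library in common in both genotypes. What sets these differences between libraries was not tested.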
